A study of Mus musculus with 5 samples.

Results

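U6 small nuclear RNA was read by 2 control probes, named U6snRNA1 and U6snRNA2, of 1487 distinct probes on a spotted microRNA (miRNA) array. The members are the probes that carry these names, and both were detected on all 20 arrays in each channel. The RNA came from C2C12, a mouse myoblast line that withdraws from the cell cycle and fuses into myotubes when serum is lowered. The 5 stages were proliferating cells at 70 to 80% confluence, confluent cells at 100%, and cells harvested 1, 2 and 4 days after confluent cells were moved to 2% horse serum. Each stage had 4 arrays, 1 for each of 4 replicates that the labels call biological, with 2 replicates labelled in each dye. Every array set its stage in one channel against a common pool of 4 proliferating replicates in the other. No agent other than the serum change and no genetic change was named, and all groups shared the 1 cell line, so precision rests on these 20 arrays. Of 5 muscle-specific miRNA probes, 2 at day 1, 4 at day 2 and 4 at day 4 were higher than in the pool, led by miR-206. This stood beside 8.79%, 12.1% and 14.3% of the 182 probes tested. The direction of these probes rests on the choice of the stage's channel described below. That choice used mouse miRNA probes without setting the muscle ones aside. These calls are therefore no independent check that the day arrays hold differentiating muscle cells.

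U6 is a short non-coding RNA of the nucleus, transcribed by RNA polymerase III, and a core part of the spliceosome that removes introns from pre-mRNA. It is not a miRNA and does not pass through Drosha or Dicer. Because it is abundant and small enough to stay in small RNA preparations, it is often used as the reference to which miRNA measurements are scaled, which takes for granted that its share of the RNA does not move between conditions. The values below show its ratio to the pool at each stage and what scaling to it did to the miRNAs of the same arrays.

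The channel that held the stage was not given per array, so the direction of every ratio is likely and not certain. For the arrays of days 1, 2 and 4 it was taken from 167 mouse miRNA probes without U6. For the confluent arrays the sign came from the correlation of the same probes with the authors' deposited table of stage values. The 12 arrays of days 1, 2 and 4 fell into opposed sets, with correlations across probes of 0.56 to 0.94 between arrays turned alike and of -0.62 to -0.12 between arrays turned oppositely. The stage was assigned to the side whose channels were less correlated with the proliferating arrays, and this was the less correlated channel on each of the 12 arrays. The same turning gave 12 of 12 arrays the sign of their correlation with the authors' deposited table of stage values, whose own direction is not stated. A first rule, which judged each array alone, had turned array 4 of day 1 the other way, and the day 1 values below depend on that array. If all arrays ran the other way, each fall below would be a rise of the same size: 1.01 for U6snRNA1 and 1.40 for U6snRNA2 at day 4 on the log2 scale. The muscle-specific miRNAs called higher above would then be lower than in the pool, led by miR-206. In the authors' deposited table miR-206 had a log2 value of 3.92 at day 4.

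U6 was lower than in the proliferating pool at days 1, 2 and 4 on both probes, relative to the bulk of the probes on each array. At day 4, U6snRNA1 was 2.02-fold and U6snRNA2 was 2.64-fold lower. The falls at days 2 and 4 passed the test under every tested alternative that did not turn all arrays around, and those at day 1 lost their call under some. At confluence, before the serum change, neither probe passed.

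At day 4 the log2 ratio of U6snRNA1 to the pool, after loess normalisation, was -1.14, -1.14, -0.66 and -1.12 on arrays 1 to 4. Array 3 was the least reduced, and all 4 arrays were below 0. The fitted log2 ratio was -1.01 (SE 0.13, limma adjusted p = 6.98e-07). The U6snRNA2 log2 ratio at day 4 was -1.54, -1.82, -1.02 and -1.23, and again no array was at or above 0. Its fitted log2 ratio was -1.40 (SE 0.15, limma adjusted p = 5.44e-08), with a 95% interval of -1.70 to -1.10. Both U6 probes were thus among the probes called lower at day 4, beside a background of 13.7% of the 182 probes tested. Of the 180 mouse miRNA probes, 6 had a lower fitted ratio than U6snRNA1 at day 4 and 2 had a lower one than U6snRNA2. With all arrays turned around, these 6 and 2 would be the probes with higher ratios than U6.

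At day 2 the log2 ratio of U6snRNA1 was -1.07, -0.54, -1.18 and -1.26, with array 2 the least reduced. Its fitted log2 ratio was -1.01 (SE 0.13, limma adjusted p = 1.41e-06). U6snRNA2 had log2 ratios of -0.93, -0.89, -1.71 and -1.24, with array 3 the lowest and none at or above 0. The fit gave -1.19 (SE 0.15, limma adjusted p = 1.41e-06), a 2.28-fold lower level than in the pool. Both probes were called lower at day 2, when 8.24% of the probes tested were. Of the 180 mouse miRNA probes, 0 had a lower fitted ratio than U6snRNA2 at day 2 and 2 had a lower one than U6snRNA1, or a higher one with all arrays turned around.

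Day 1 gave smaller and less even values. The log2 ratio of U6snRNA1 was -0.51, -0.39, -0.91 and -0.09, so array 4 lay near 0 and array 3 was the lowest. The fitted value was -0.47 (SE 0.13, limma adjusted p = 0.0111). For U6snRNA2 the log2 ratios were -1.20, -0.42, -0.82 and -0.59, with array 1 the lowest, and the fitted value was -0.76 (SE 0.15, limma adjusted p = 9.95e-04). Both probes were called lower, against 6.04% of all probes tested. The day 1 call of U6snRNA1 was lost without array 1 (log2 ratio -0.43, limma adjusted p = 0.0667) and without array 3 (-0.35, adjusted p = 0.102). With array 4 turned the other way, the log2 ratios were -0.41 for U6snRNA1 and -0.60 for U6snRNA2, and neither passed (limma adjusted p = 0.169 for both).

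**Figure D1:**
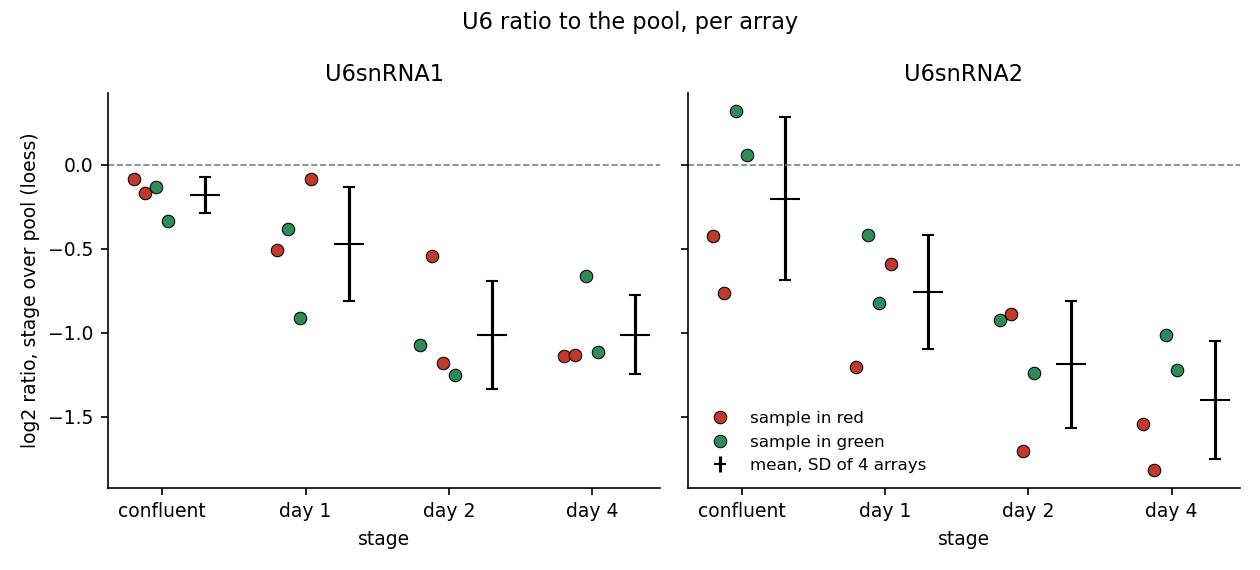
Log2 ratio of each stage to the proliferating pool for both U6 probes, 1 point per array, coloured by the channel taken as the stage's; the bar gives the mean and SD of 4 arrays. All 24 values of days 1, 2 and 4 lie below 0, from -0.09 to -1.82. At confluence the U6snRNA2 values lie below 0 with the stage in red and above 0 with it in green, without adjustment for dye.

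At confluence the log2 ratio of U6snRNA1 was -0.08, -0.17, -0.13 and -0.33, and that of U6snRNA2 was -0.42, -0.76, 0.32 and 0.06. The U6snRNA2 values below 0 came with the stage in red and those above 0 with it in green, without adjustment for dye. These values rest on the pairing of arrays with the largest spread among 3 possible. With a correlation of 0.79 in size, it was also the only pairing that followed the authors' deposited table clearly. The other pairings gave 0.00191 and 0.0196. The sign was taken from that table, whose own direction is not stated. On arrays 2, 3 and 4 the channel taken as the stage's was the more correlated with the proliferating arrays, unlike on the day arrays. Turned around, both fitted ratios at confluence would be rises of the same size. The fitted log2 ratios were -0.18 (SE 0.13, limma adjusted p = 0.606) and -0.20 (SE 0.15, limma adjusted p = 0.610), with 95% intervals of -0.44 to 0.08 and -0.51 to 0.10. Neither probe was called, and 0.549% of all probes were. An effect of the size seen at day 4 lies outside both intervals.

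Proliferating arrays held the same kind of RNA in both channels and could not be turned, so their values show the spread of the assay. The log2 ratio of red over green was 0.38, 0.07, 0.32 and -0.03 for U6snRNA1 (SD 0.20, n = 4) and -0.01, -0.61, -0.28 and 0.29 for U6snRNA2 (SD 0.38, n = 4). On all 4 arrays of day 2 and all 4 of day 4, the red over green ratios of both probes lay outside these proliferating ranges. At day 1 this held for 4 arrays of U6snRNA1 and 3 of U6snRNA2, since array 4 at -0.59 fell within the proliferating range of U6snRNA2. For U6snRNA1 at day 1, arrays 2 and 4 lay only just outside, at 0.385 against 0.379 and at -0.09 against -0.03. At confluence, 2 of 4 arrays of U6snRNA1 and 1 of 4 of U6snRNA2 lay outside as well. Such separation of all 4 arrays was seen for 13.7% of the probes tested at day 1, 15.9% at day 2 and 23.6% at day 4. These ranges do not use the turning of the arrays.

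The differences between days were less certain than the differences from the pool. From day 1 to day 4 the fitted log2 ratio of U6snRNA1 changed by -0.54 (SE 0.18, limma adjusted p = 0.0599) and that of U6snRNA2 by -0.64 (SE 0.21, limma adjusted p = 0.0569). Neither passed in the fit used throughout, in which 8.79% of probes did, though both lay near the threshold and passed under some alternatives. From day 1 to day 2 the changes were -0.54 and -0.43 (limma adjusted p = 0.217 and 0.479). From day 2 to day 4, U6snRNA1 differed by less than 0.01 with a 95% interval of -0.37 to 0.37, and U6snRNA2 changed by -0.21 with an interval of -0.64 to 0.22 (limma adjusted p = 0.998 and 0.886). These intervals are wide enough to hold further changes of either sign between day 2 and day 4.

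The fall can be seen in the signals themselves, without loess. As a share of the summed background-subtracted signal of the 180 tested mouse miRNA probes in the same channel, U6snRNA1 in the pool channel of the 12 day arrays ranged from 0.363% to 0.689%, with a median of 0.483%. In the stage channel its share ranged from 0.150% to 0.452%, with a median of 0.216%. The share was lower in the stage channel on 12 of 12 arrays. U6snRNA2 took 2.31% to 3.94% of the summed signal in the pool channel, with a median of 3.07%, and 0.975% to 1.87% in the stage channel, with a median of 1.37%, and its pool and stage ranges did not overlap. It too was lower in the stage channel on 12 of 12 arrays. Of the 182 probes tested, 22.5% had a lower share in the stage channel on all 12 arrays, and 0.549%, which is U6snRNA2 alone, had a stage range wholly below the pool range. By day, the stage share of U6snRNA2 was 1.65% ± 0.170 at day 1, 1.37% ± 0.180 at day 2 and 1.08% ± 0.156 at day 4 (SD, n = 4 arrays each), beside pool shares of 3.04% ± 0.334, 3.47% ± 0.679 and 2.96% ± 0.463. U6snRNA1 had stage shares of 0.287% ± 0.112, 0.245% ± 0.0694 and 0.193% ± 0.0385 on the same days (SD, n = 4 arrays each). A share of summed signal also moves with the miRNAs it is divided by, of which 2, 4 and 4 of the 5 muscle-specific probes were higher at days 1, 2 and 4.

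**Figure D2:**
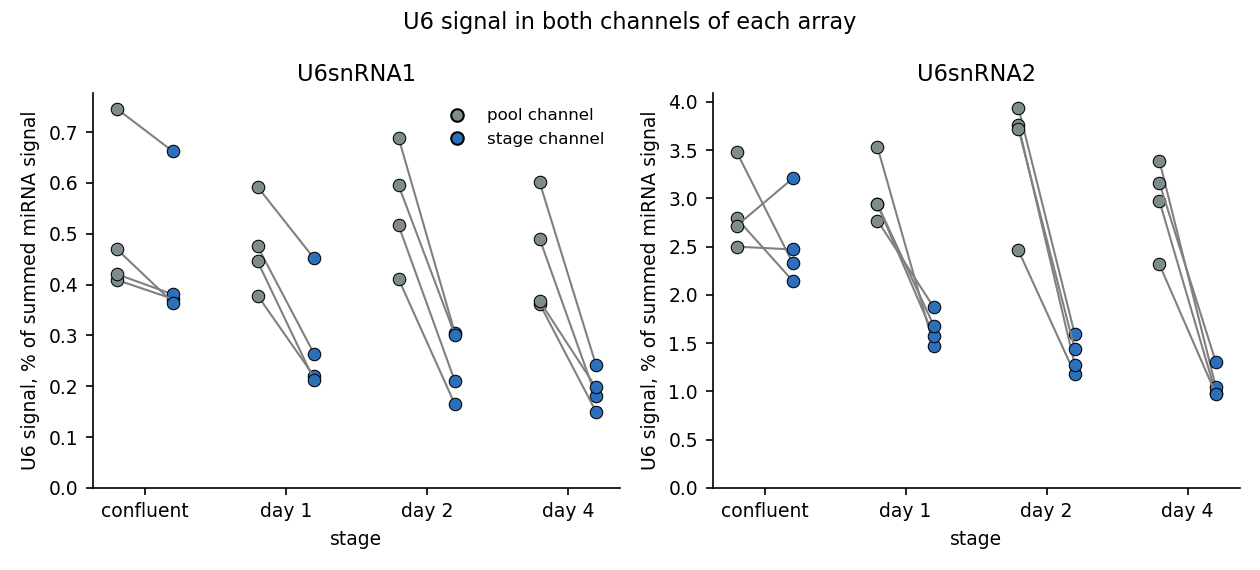
Background-subtracted signal of each U6 probe as a percent of the summed signal of the tested mouse miRNA probes in the same channel; a line joins the pool and stage channels of 1 array. On all 12 arrays of days 1, 2 and 4 the line falls from pool to stage for both probes, and at confluence the U6snRNA2 lines cross.

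No U6 spot was near the top of the scale. The brightest U6 spot had a median intensity of 16130, where the brightest spot on any array reached 65180, and the dimmest U6 spot had 403. The 2 spots of U6snRNA1 differed by a median of 0.19 and at most 0.52 on the log2 ratio scale, and those of U6snRNA2 by a median of 0.07 and at most 0.20. The median gap between repeat spots was below the SD between arrays at days 1, 2 and 4, which was 0.24 to 0.38 across both probes.

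Both probes followed each other from array to array, with r = 0.91 over the 12 day arrays after removal of the dye term; these points share the array, the labelling and the stages. U6snRNA2 minus U6snRNA1 was -0.29 ± 0.38 at day 1, -0.18 ± 0.31 at day 2 and -0.39 ± 0.23 at day 4 on the log2 ratio scale (SD, n = 4 arrays each). At day 4, U6snRNA2 was the lower of the pair on all 4 arrays, and on the other days the order varied. The dye term, which is the part of red over green that does not depend on the stage, was -0.21 for U6snRNA2 (SE 0.07, limma adjusted p = 0.00760) and 0.09 for U6snRNA1 (SE 0.06, limma adjusted p = 0.174), where 64.3% of probes had one that passed. Within each labelling at day 4, the mean log2 ratio of U6snRNA2 was -1.68 with the stage in red and -1.12 with the stage in green, and that of U6snRNA1 was -1.14 and -0.89. No probe or U6 sequence was at hand, so which stretch of U6 each probe reads is not given here.

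In the authors' deposited table of stage values, U6snRNA1 had log2 values of -0.06 in proliferating cells, -0.22 at confluence, -0.50 at day 1, -1.01 at day 2 and -0.95 at day 4. For U6snRNA2 the authors' deposited table gave 0.00, -0.11, -0.77, -1.11 and -1.32 in the same order. The authors' values are not independent of the arrays used above, and they carry no error.

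A ratio within an array shows only that U6 and the bulk of the probes changed unequally. A fall of U6 per cell and a general rise of miRNAs cannot be told apart here, nor can an even fall across cells and a larger fall in some of them. The 10 spike control probes on the array gave no outside scale, since each was detected on at most 4 of 20 arrays in a channel. Of 10 small nucleolar RNA (snoRNA) control probes with human names, 5 could be tested, in a fit over 560 probes of any species. SNORD2, SNORD3@ and SNORD13 are the snoRNA probes detected on every array. SNORD2, which guides methylation of ribosomal RNA, had log2 ratios of -0.27, -0.46 and -0.72 at days 1, 2 and 4 (limma adjusted p = 0.189, 0.0227 and 2.50e-04). SNORD3@, for U3, which acts in ribosomal RNA processing, had -0.61, -0.76 and -0.44 (limma adjusted p = 0.0960, 0.0398 and 0.271), and SNORD13 had -0.36, -0.46 and -0.18 (limma adjusted p = 0.0685, 0.0202 and 0.421). In that fit 3.75%, 4.29% and 7.5% of probes were called lower at days 1, 2 and 4. SNORD12 had -0.01, 0.72 and -0.06 (limma adjusted p = 0.986, 0.215 and 0.937) and SNORD6 had 0.12, 0.23 and -0.08 (limma adjusted p = 0.596, 0.313 and 0.790). These 2 probes were detected on fewer arrays, SNORD12 on 7 in red and 11 in green, and SNORD6 on 5 and 8. Of the 5 snoRNA probes, 3 were called lower at day 2 and 1 at day 4. The difference between U6 and the snoRNAs was not tested.

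Relative to 4 miRNAs that are often used as references, U6 was also lower. The list held 6 probes on the array, of which miR-93 and miR-25 could not be tested. Against the mean of miR-16, miR-24, miR-103 and miR-191 on the same array, the log2 ratio was -0.58 at day 1, -1.15 at day 2 and -1.02 at day 4 for U6snRNA1 (limma adjusted p = 0.00351, 6.48e-08 and 2.59e-07). For U6snRNA2 it was -0.87, -1.33 and -1.41 (limma adjusted p = 1.59e-05, 2.13e-09 and 4.07e-10). Of these 4 miRNAs, miR-24 and miR-191 were themselves higher at day 4 and miR-16 was lower. Their mean is therefore no fixed point either.

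Scaling to U6 was then applied to the 180 mouse miRNA probes by subtracting, on each array, the mean log2 ratio of both U6 probes. This mean was -0.62 ± 0.28 at day 1, -1.10 ± 0.32 at day 2 and -1.21 ± 0.28 at day 4 (SD, n = 4 arrays each), so each miRNA ratio moved up by 0.62, 1.10 and 1.21. Before scaling, 16 probes were higher and 9 lower at day 1, 22 and 13 at day 2, and 26 and 23 at day 4 (limma, adjusted p under 0.05). This balance depends on the scale: with each channel divided by its summed signal, 5 were higher and 91 lower at day 1, 12 and 48 at day 2, and 15 and 66 at day 4. After scaling, 162, 177 and 174 of 180 were higher, which is 90%, 98.3% and 96.7%. The day 1 count depended on the processing. It was 117 with median centring, without normalisation within arrays and with summed signal. With U6snRNA1 alone as the scale it was 126, and with U6snRNA2 alone 171. With each array turned alone, limma called 0 higher and 0 lower at day 1 before scaling (12 and 21 at an unadjusted p under 0.05) and 67 higher after. None was lower at any of the 3 days after scaling by limma, also at an unadjusted p under 0.05. The median log2 ratio at day 4 went from 0.02 to 1.23. The probes at least 2-fold higher than the pool went from 3 to 21 at day 1 and from 4 to 119 at day 2.

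**Figure D3:**
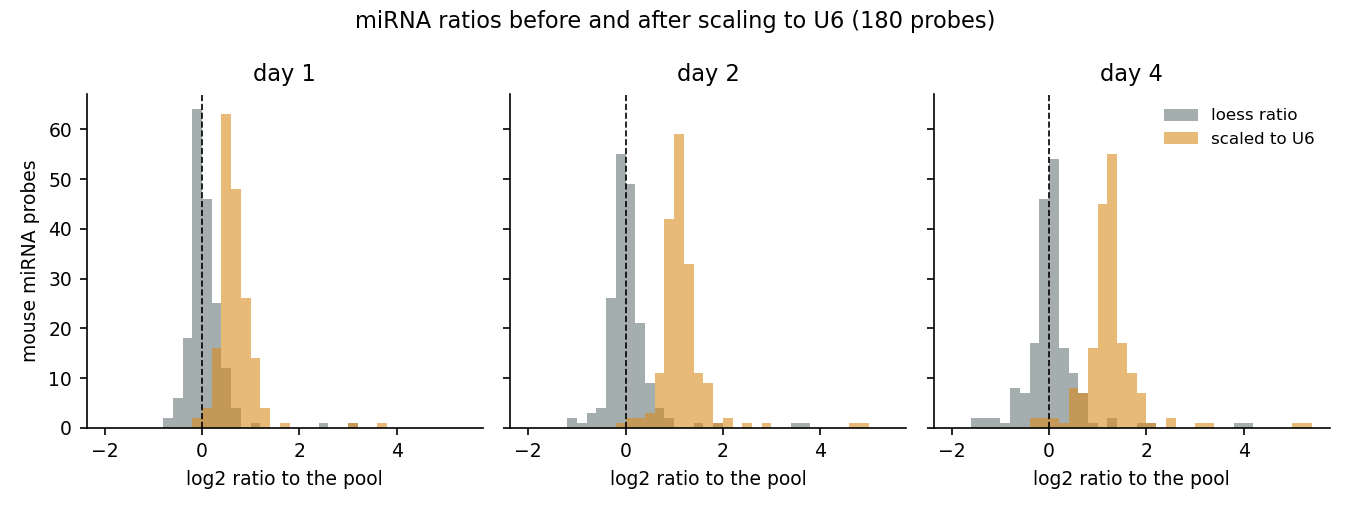
Distribution of the fitted log2 ratios of 180 mouse miRNA probes to the pool at days 1, 2 and 4, as loess ratios and after scaling to the mean of both U6 probes, in bins of 0.2. The whole distribution moves right by 0.62, 1.10 and 1.21, and at day 4 the median goes from 0.02 to 1.23.

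Every rise called before scaling was kept, and every fall was lost or turned into a rise. This follows largely from the arithmetic. The same positive number was added to every ratio of a day, and few probes had a lower ratio than U6. At day 1 all 9 falls were lost. At day 2, 3 falls were lost and 10 became rises. At day 4, 6 were lost and 17 became rises. The calls gained were 146, 145 and 131, all rises. Loess takes the bulk of the probes as unchanged, and the U6 scale takes U6 as unchanged; these arrays hold no outside standard by which to choose.

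The 6 probes whose falls at day 4 were lost read 5 miRNAs. Their mature sequences, from RefSeq on GRCm38.p6, are shown to identify them, with the seed (bases 2 to 8, which pair with target mRNAs) in capitals. The array name miR-18 was matched to miR-18a of the gene Mir18.
miR-17-5p: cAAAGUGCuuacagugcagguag
miR-20a-5p: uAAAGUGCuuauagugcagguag
miR-18a-5p: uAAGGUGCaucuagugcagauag
miR-222-3p: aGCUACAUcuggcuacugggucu
miR-31-5p: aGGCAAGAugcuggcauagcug
Of these, miR-17-5p and miR-20a-5p share the seed AAAGUGC, and miR-18a-5p has the seed AAGGUGC. These 3 come from the miR-17 cluster, a polycistron of several miRNAs known to promote proliferation, on mouse chromosome 14. miR-222 is encoded on chromosome X and is known to repress a cell cycle inhibitor, and miR-31 is encoded on chromosome 4.

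miR-17-5p was lower by loess at day 4 with a log2 ratio of -1.49 (SE 0.13, limma adjusted p = 4.04e-09), and after scaling to U6 its log2 ratio was -0.28 (SE 0.16, limma adjusted p = 0.0893). The brighter of 2 miR-20a probes went from -1.43 to -0.22 and the dimmer from -1.07 to 0.14. miR-18 went from -1.29 to -0.08, and miR-222 went from -1.22 to -0.01. On the scale of the mean of both U6 probes, none of these was called different from the pool at day 4. The lack of a call does not place them at the pool level. With U6snRNA1 alone as the scale, 2 mouse miRNA probes were called lower at day 4, and with U6snRNA2 alone 0 were. miR-31 went from -1.11 to 0.10 (limma adjusted p = 5.02e-06 before and 0.484 after). Of the 8 probes of the miR-17 cluster on the array, 5 could be tested, and of these 3, 5 and 4 were lower at days 1, 2 and 4 before scaling, beside 6.04%, 8.24% and 13.7% of all probes tested. After scaling to the mean of both U6 probes none was lower (limma, none also at an unadjusted p under 0.05). On that scale 1, 3 and 1 of the 5 were higher, beside 90%, 98.3% and 96.7% of all probes.

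Among the falls that became rises at day 4, miR-15b went from a log2 ratio of -0.83 to 0.37 (limma adjusted p = 8.25e-07 before and 0.0134 after). miR-182 went from -0.77 to 0.43, miR-183 from -0.73 to 0.48, miR-221 from -0.71 to 0.50 and miR-125b from -0.71 to 0.50. The reference miRNA miR-16, which shares its seed family with miR-15b, turned as well, from -0.69 (limma adjusted p = 0.00771) to 0.52 (limma adjusted p = 0.00314). All 4 tested reference miRNAs were higher after scaling at each of the 3 days, beside 90%, 98.3% and 96.7% of all 180 probes. Before scaling, 0, 1 and 2 of the 4 were, beside 8.79%, 12.1% and 14.3% of the 182 probes tested (limma; at day 1 the lowest adjusted p was that of miR-24, 0.173). miR-103 moved from -0.20 (limma adjusted p = 0.486) to 1.01 (limma adjusted p = 1.62e-06).

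The muscle-specific miRNAs kept their direction and gained in size. miR-206, which is restricted to skeletal muscle, went from a log2 ratio of 4.13 (SE 0.21) to 5.34 (SE 0.20) at day 4. The shared probe for miR-133a and miR-133b went from 3.85 to 5.06, miR-1 from 2.07 to 3.28 and miR-499, which lies in a myosin gene, from 0.71 to 1.92. miR-486 was not called by loess at day 4 (0.09, limma adjusted p = 0.646) and was called higher on the U6 scale (1.30, limma adjusted p = 4.90e-10). All 5 muscle probes were higher after scaling at each day, but so were at least 90% of all probes. The order of the miRNAs within a day is the same on both scales, because scaling adds the same number to each.

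**Figure D4:**
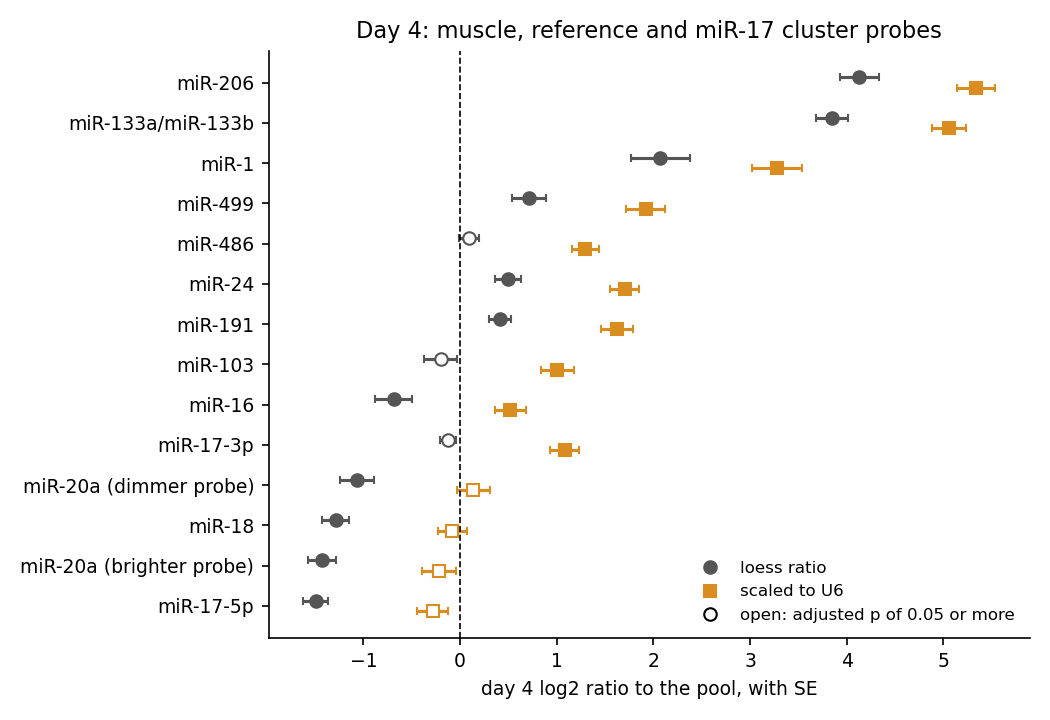
Day 4 log2 ratio to the pool, with its SE, for 5 muscle-specific, 4 reference and 5 probes of the miR-17 cluster, before (circles) and after (squares) scaling to U6; open symbols did not pass an adjusted p of 0.05. Each probe moves right by 1.21: miR-17-5p from -1.49 to -0.28, miR-16 from -0.69 to 0.52 and miR-206 from 4.13 to 5.34.

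Scaling to U6 also added spread. The residual SD of the fit was 0.25 for U6snRNA1 and 0.31 for U6snRNA2, and 98 and 52 of the 180 mouse miRNA probes had a larger one. The median residual SD of the miRNA probes rose from 0.26 before to 0.32 after scaling, and it was larger after scaling for 127 of 180. The median SE of a day's log2 ratio went from 0.13 to 0.16.

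Over the 12 day arrays, with the dye term removed, the mouse probes whose log2 ratios were most like the mean of the U6 probes were miR-221 (r = 0.89), miR-31 (r = 0.88), miR-135b (r = 0.86), miR-222 (r = 0.84) and miR-125b (r = 0.81). The median r of all 180 was 0.16, and the least like were miR-712 (r = -0.91) and miR-185 (r = -0.91). All points share the arrays and the stages, so these values are a description. miR-221 and miR-222 come from one cluster, and their day 4 ratios of -0.71 and -1.22 passed the test, whereas that of miR-135b, at -0.15, did not (limma adjusted p = 0.655).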

How the data were processed

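Per the labels, total RNA was extracted with TRIzol and labelled by a microarray facility. Per the file headers, each deposited array file gives foreground intensity (median and mean) and a morphological background intensity per spot and channel, unnormalised. The deposited log2 ratio per spot is that of the red to the green median, each less its background (largest gap 5e-10). A second deposited log2 table holds 1 authors' value per probe and stage. How it was centred, and its direction, are not given in the sources used here; its column medians over mouse probes were 0 for proliferating, -0.01 for confluent, 0.02 for day 1, -0.02 for day 2 and -0.02 for day 4 cells. Image software and genome build are not given either.

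Medians were corrected with normexp (offset 50), then each array was normalised by global loess in which controls had weight 0, and repeat spots were averaged (limma 3.58.1, R 4.3.3). A probe was tested when its background-subtracted signal passed percentile 95 of negative controls and empty positions in the stage's channel on at least 3 of the 4 arrays of a stage. This left 180 of 343 mouse probes, which with U6 made 182. Array numbers name files and pair nothing. One fit over 20 arrays had a dye term and effects for confluent, day 1, day 2 and day 4, coded by the stage's channel. Proliferating arrays were coded 0, so SEs hold no error of a proliferating stage. The fit had 15 residual degrees of freedom, and p-values were adjusted by Benjamini-Hochberg over all probes tested. In ways 1 to 6 the proliferating arrays, turned 2 against 2, had an effect of their own and served as control. The day 1 SE was then 0.17 to 0.18 for U6snRNA1 and 0.19 to 0.21 for U6snRNA2, against 0.13 and 0.15. An exact sign-flip permutation test of 4 arrays cannot go below p = 0.125 (two-sided), and every U6 ratio at days 1, 2 and 4 gave that value.

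The first turning of the arrays took the root mean square distance of each array's channels alone. It was replaced by mutual correlations after its results had been seen, because it turned 1 day 1 array against its correlations and against the stated 2 replicates per dye. It is kept as an alternative. Named miRNAs are the muscle-specific, miR-17 cluster and reference lists, the calls lost, gained or turned by scaling (all where 10 or fewer, otherwise the 5 largest each way, of which the gained ones are given only as counts), and the 5 most and 2 least similar to U6. The members and lists were chosen with earlier results of these data known. Probes of the blood (2 of 6), neuron (1 of 5), epithelium (1 of 6), endothelium (0 of 1) and liver (0 of 1) lists were mostly not tested for lack of signal; of the 4 tested, miR-150 alone was called before scaling by limma, higher at all 3 days. Alternatives covered background, normalisation, spot handling, arrays in the fit, turning, control, filters and the U6 probe used.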

Additional observations from a re-analysis of the deposited data

Results flagged for a closer look

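On array 3 of day 4, the log2 ratio of U6snRNA1 to the pool was -0.66, away from the other arrays at -1.14, -1.14 and -1.12. Its gap to the nearest array was large against the range of the 4 arrays. Of 10 groups of 4 arrays examined in this way, this was the one that stood out, and chance flags about 1 group in 20. On the same array U6snRNA2 was at -1.02, the least reduced of its 4. Without this array the fitted U6snRNA1 ratio at day 4 was -1.17, and the difference between day 4 and day 1 was -0.70 and passed (limma adjusted p = 0.0107). The array was picked for its value, so a larger difference without it was fixed in advance. Of the 20 fits that left out 1 array, 17 did not pass for this difference.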

How the results depend on the processing

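U6snRNA1 at day 2 and day 4 and U6snRNA2 at day 2 and day 4 kept their direction and passed under all tested alternatives but the turning of all arrays, with log2 ratios of -0.85 to -1.23 and -0.85 to -1.27 for U6snRNA1, and of -0.90 to -1.48 and -1.11 to -1.69 for U6snRNA2. Beyond what an alternative's own construction changes (fewer probes, fewer arrays), the cause of a change was not tested. The scaling to reference miRNAs, the summed signal and the array-by-array turning were added after seeing the data. No paired analysis was possible because the labels give the stages no shared replicate numbers.

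With all arrays turned around, U6snRNA1 became 0.47, 1.01 and 1.01 and U6snRNA2 0.76, 1.19 and 1.40 at days 1, 2 and 4. Probes higher before scaling became 9 and 13 and probes lower 16 and 22 at days 1 and 2, and after scaling 0 were higher and 162, 177 and 174 lower at days 1, 2 and 4.

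At day 1, U6snRNA1 lost its call with median centring (-0.47, limma adjusted p = 0.0516) and with the proliferating arrays as control, turned in ways 1, 3, 4, 5 and 6 of 6 (-0.51, -0.46, -0.48, -0.31 and -0.43). U6snRNA2 lost it in ways 1 and 4 (-0.60 and -0.47). With each array turned alone, both lost it (-0.41 and -0.60), and at day 1 probes called before scaling were 0 higher and 0 lower, and 67 higher after.

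Day 4 minus day 1 passed for U6snRNA1 without background correction (-0.50), and with repeat spots apart or only probes detected on all 20 arrays (-0.54 in both). For U6snRNA2 it passed with background subtracted (-0.67), without correction (-0.67), with repeat spots apart, in ways 3 and 4 and with all-array detection (-0.64 in each), and with summed signal (-0.59).

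Leaving out 1 array gave -0.58 to -0.35 for U6snRNA1 at day 1, -0.70 to -0.43 for its day 4 minus day 1 and -0.74 to -0.50 for that of U6snRNA2. It gave 2 to 9 probes lower before scaling at day 1 (5 without array 3 and 2 without array 2 of day 1), 14 to 24 higher at day 2 (14 without array 1 or 4) and 9 to 20 lower at day 2 (20 without array 2).

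Without normalisation, 9 probes were higher and 14 lower at day 1 and 7 lower at day 2 before scaling. With the 12 day arrays alone, 5 were lower at day 1. Under ways 1 to 6, the moved counts before scaling at day 1 were 2, 5, 10 and 7 higher (ways 1, 2, 3 and 6) and 0, 1, 5, 3, 3 and 1 lower. At day 2 they were 13, 8, 13, 13 and 10 higher (ways 1, 2, 3, 5 and 6) and 7, 5 and 6 lower (ways 2, 5 and 6). At day 4 they were 17, 17 and 16 higher (ways 2, 3 and 5) and 13, 13 and 14 lower (ways 1, 4 and 5). After scaling at day 1, 95, 102 and 101 were higher in ways 1, 4 and 5. Probes lower after scaling at day 4 were 1 with repeat spots apart and in ways 4 and 5, and 2 with U6snRNA1 alone as the scale.

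Without a filter on dim probes, 294, 339 and 337 were higher after scaling at days 1, 2 and 4, and 4 were lower before it at day 1. With detection on all 20 arrays, 57, 62 and 61 were higher after scaling, and before it 8 were lower at day 2, 14 higher and 15 lower at day 4. With summed signal, 5, 12 and 15 were higher and 91, 48 and 66 lower before scaling; miR-486 (-0.40), miR-191 (-0.38) and miR-378 (-0.49) at day 1 and miR-542-3p (-0.32) at day 4 then fell and had been on the other side of 0 by loess.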
